A study of Mus musculus with 12 samples.

Results

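Glucocorticoid-induced genes were examined in the hypothalamus of WT and *Gpr75-/-* mice. The genes are known targets of the glucocorticoid receptor in brain and other tissues, together with the receptors for glucocorticoids and the enzyme that regenerates the hormone. They were chosen by symbol from a list of 35 genes, of which 34 were found in the tables of both diets, among 16855 genes on chow and 16744 on the HFD. *Lcn2*, which encodes lipocalin, was listed in neither table. RNA-Seq was performed on hypothalamus from 12 male mice of C57BL/6J background, age-matched at 8 weeks, with 3 mice in each of 4 groups. The genotypes were WT (+/+) and *Gpr75-/-*, and each was studied on a chow diet and on a high-fat diet (HFD) that was given for 2 weeks from 6 weeks of age. The *Gpr75-/-* allele was made in the germline with CRISPR/Cas9 and encodes a protein that ends after a few residues, so GPR75 was missing in the whole body and not in the hypothalamus alone, while its mRNA can still be made. The study asked how GPR75, a ciliary receptor of the brain, takes part in the central control of feeding, and the comparison made here is *Gpr75-/-* against WT on each diet.

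Glucocorticoids are steroid hormones of the adrenal cortex, released under the control of the hypothalamus and pituitary, with a daily rhythm and a surge under stress. In the brain they bind the glucocorticoid receptor, encoded by *Nr3c1*, and the mineralocorticoid receptor, encoded by *Nr3c2*, which then enter the nucleus and bind palindromic response elements in DNA. Neurons, glia and vessel cells all respond, and many of the induced genes limit the response itself or shift cells from sugar to fat as fuel.

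The deposited tables give 1 value for each group and gene, and no value of a single mouse was used here. The tables also hold standard errors and p-values of the authors' own comparison, which were not used here. The differences below are therefore given as descriptions, with no replicate check and no p-value, and were not set against the spread between mice. The group values were read as counts scaled to the library total (CPM), and a genotype effect is the log2 ratio of *Gpr75-/-* over WT after 1 CPM was added to each, which understates the change of genes at low CPM. The values were deposited with 2 decimals of a doubly logged number, and the range that this rounding leaves is printed after each log2 ratio. It covers rounding only, and a range that merely touches zero was taken to include it. A gene was counted as higher or lower where its log2 ratio reached 0.32 above or below zero (a fold of a fixed size, taken before rounding), and a mean of at least 30 normalized counts over the 6 mice of a diet was required. All 34 genes passed that filter on both diets, with the lowest mean at 62.3 normalized counts for *Map3k6* on the HFD. The mean normalized counts summed to 18280462 on chow and 19420111 on the HFD, and the median log2 ratio over all genes past the filter was 0.00 on each diet. In the targeted gene, *Gpr75*, the group value was 16.7 CPM in chow-fed WT mice and 24.6 CPM in chow-fed *Gpr75-/-* mice, and 19.9 and 18.4 CPM on the HFD, which does not check the genotype given the kind of allele. All 10 marker genes of the hypothalamus were present on both diets, with a summed level between 705 and 859 CPM in the 4 groups. In bulk tissue, fewer cells of a type and less RNA per cell cannot be told apart.

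The response element to which the glucocorticoid receptor binds is a palindrome, and the sequences before the transcript starts of these genes were searched for it on both strands. RefSeq promoters of the build GRCm38.p6, which differs from the GRCm39 build named in the submitters' processing notes, were matched by symbol for 29 of the 35 genes, with 39 starts in all, and the 250 bases before each start were read. The full palindrome, written as AGAACA, any 3 bases and TGTTCT, was found before 1 of these starts, a start of *Sgk1*, and before 3 of 32851 starts of all genes (0.00913%). A 13-letter form, GNACA, any 3 bases and TGTNC, which lies within every full palindrome, was found before 4 starts, of *Sgk1*, *Txnip*, *Mt1* and *Map3k6*, and before 0.387% of all starts. Its core, ACA, any 3 bases and TGT, was found before 6 starts, of the same 4 genes and *Lcn2*, and before 5.84% of all starts. One arm of the palindrome alone, AGAACA, was found before 6 of the 39 starts, of *Tsc22d3*, *Sgk1*, *Bcl6* and *Sult1a1*, and before 16.1% of all starts. The share of the single arm here was thus close to that of all starts. A match describes the letters alone and is not a bound site, and no match says only that these letters are not in this window. The stretches below were picked after the matches were known. They are those of the palindrome and the 13-letter form, with a single arm of *Tsc22d3* as an example of the shorter match. They are written 5′ to 3′ on the strand of the gene, with the matched letters in capitals.
Sgk1, chr10:21993651-21993765, plus strand: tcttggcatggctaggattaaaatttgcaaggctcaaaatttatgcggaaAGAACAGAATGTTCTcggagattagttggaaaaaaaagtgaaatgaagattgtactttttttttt
Mt1, chr8:94178945-94179057, plus strand: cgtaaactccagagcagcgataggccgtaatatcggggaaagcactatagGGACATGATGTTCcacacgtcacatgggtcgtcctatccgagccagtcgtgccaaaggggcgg
Map3k6, chr4:133240587-133240699, plus strand: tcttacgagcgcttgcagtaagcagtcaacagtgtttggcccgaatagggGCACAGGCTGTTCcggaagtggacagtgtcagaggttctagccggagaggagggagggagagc
Txnip, chr3:96557785-96557797, plus strand: GCACACCGTGTCC
Tsc22d3, chrX:140600660-140600757, minus strand: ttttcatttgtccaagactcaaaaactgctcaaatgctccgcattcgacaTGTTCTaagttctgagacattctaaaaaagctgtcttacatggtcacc
The palindrome of *Sgk1* begins 189 bases before its transcript start, the 13-letter matches of *Map3k6*, *Txnip* and *Mt1* begin 181, 172 and 94 bases before theirs, and the single arm of *Tsc22d3* begins 185 bases before its start. The match of *Txnip* lies inside an exon annotated in GENCODE M21 and is printed without its flanks.

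On the chow diet, 15 of the 34 genes were counted as higher in *Gpr75-/-* mice and 0 as lower. Over all 15657 genes past the filter, 1.67% were counted as higher and 1.55% as lower. The median log2 ratio of the 34 genes was 0.25, against 0.00 over all genes. The count depended on the settings, with 7 genes counted as higher where 10 CPM was added in place of 1 and 2 genes, *Plin4* and *Zbtb16*, at a fold of 1.5. The count over all genes fell as well, from 261 counted as higher to 32 where 10 CPM was added and 28 at a fold of 1.5. Beyond the rounding range, 25 genes (73.5%) were higher, 6 (17.6%) were lower and 3 could not be placed, where 30.1% of all genes were higher and 29.3% lower by that criterion. The strongest ratio was that of *Plin4* and the lowest that of *Nr3c1*, the receptor itself. The genes nearest to the threshold were *Map3k6* (0.33) and *Fkbp5* (0.34) inside it, and *Pdk4* (0.32, just under the threshold before rounding) and *Bcl6* (0.25) outside it. The list was chosen with results of these mice known, so the direction on chow is not independent evidence.

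**Figure D1:**
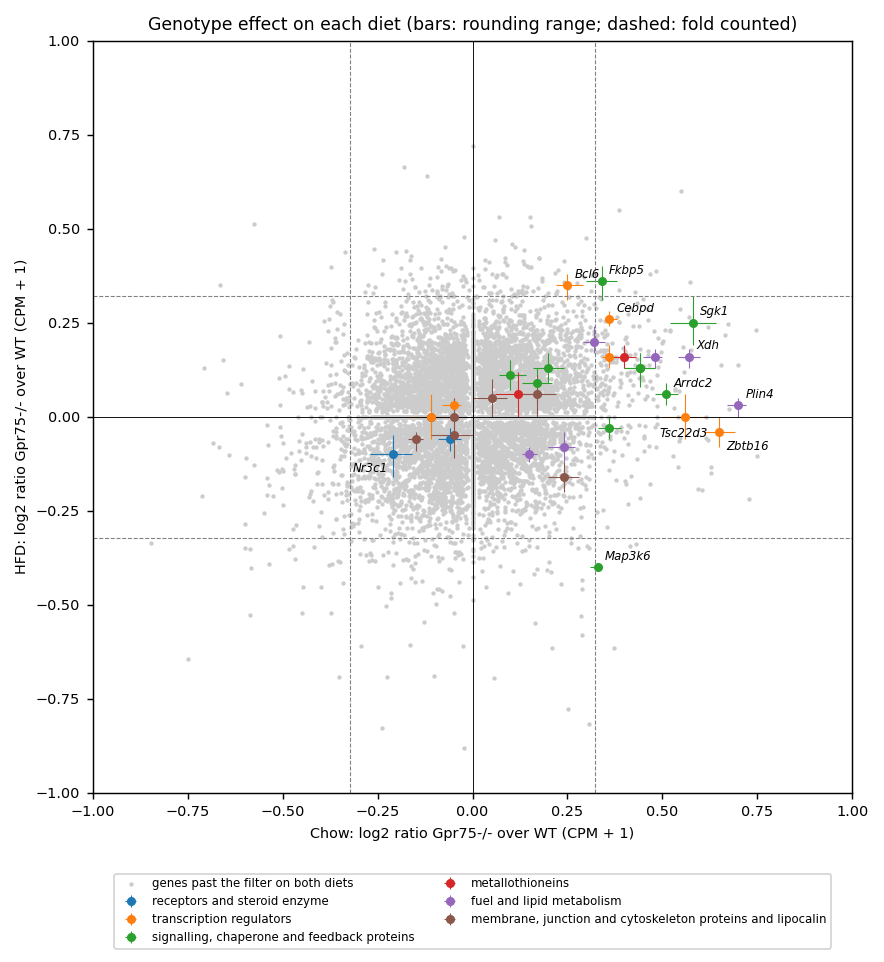
Log2 ratio of Gpr75-/- over WT on chow (x axis) and on the HFD (y axis), for all genes past the filter on both diets (gray) and for the 34 glucocorticoid-induced genes colored by role, with bars for the rounding range and dashed lines at 0.32 above and below zero. Genes at the edge of the cloud are named where space allows. The axes stop at 1 in either direction, so gray genes beyond that are not drawn. The 15 genes right of the dashed line on chow spread between -0.40 and 0.36 on the HFD.

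Transcription regulators gave 4 of 7 genes counted as higher on chow, with a median log2 ratio of 0.36. *Tsc22d3* (ENSMUSG00000031431, chromosome X, 139440277 to 139501408) encodes a leucine zipper protein, known as GILZ, that restrains inflammatory signaling. Its level was 207 CPM in chow-fed WT mice, 305 CPM in chow-fed *Gpr75-/-* mice, and 319 CPM in both genotypes on the HFD. The log2 ratio was 0.56 (0.50 to 0.62) on chow and 0.00 (-0.06 to 0.06) on the HFD, and the chow-fed WT mice stood below all other groups. *Zbtb16*, a zinc finger repressor that is strongly induced by glucocorticoids in many cell types, was at 21 and 33.4 CPM in WT and *Gpr75-/-* mice on chow and at 28.2 and 27.4 CPM on the HFD. Its chow log2 ratio was 0.65 (0.61 to 0.69), and its HFD log2 ratio was -0.04 (-0.08 to 0.00). *Hif3a*, an inhibitory relative of the hypoxia-inducible factors, was at 7.85 and 10.4 CPM on chow (0.36, 0.34 to 0.39) and at 9.18 and 10.4 CPM on the HFD (0.16, 0.13 to 0.19). *Cebpd*, a factor of the acute phase response, was at 3 and 4.15 CPM on chow and at 4.91 and 6.08 CPM on the HFD, so *Gpr75-/-* was the higher genotype on both diets. *Bcl6*, a transcriptional repressor, was one of the genes with the larger effect on the HFD, 23.9 against 30.7 CPM (0.35, 0.31 to 0.38), compared with 20.4 against 24.6 CPM on chow (0.25, 0.22 to 0.29). *Klf9*, a Krüppel-like factor that responds to both glucocorticoid and thyroid hormone, did not share the pattern, with 144 and 133 CPM on chow and 133 CPM in both genotypes on the HFD. *Cebpb*, a close relative of *Cebpd*, lay between 8.48 and 9 CPM in the 4 groups.

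Proteins of signaling and feedback gave the most counted genes, 7 of 10 on chow, and all 10 were higher in *Gpr75-/-* mice beyond the rounding range, with a median log2 ratio of 0.35. *Sgk1* (ENSMUSG00000019970, chromosome 10, 21758083 to 21875802), a kinase that regulates ion channels and transporters and carries the full palindrome shown above, was at 138 CPM in chow-fed WT mice and 207 CPM in chow-fed *Gpr75-/-* mice. On the HFD it was at 267 and 319 CPM. Its log2 ratio was 0.58 (0.52 to 0.64) on chow and 0.25 (0.19 to 0.32) on the HFD, and both HFD groups stood above both chow groups. *Fkbp5*, a co-chaperone that lowers the affinity of the receptor for its hormone and so closes a feedback loop, was at 34.4 and 43.8 CPM on chow and 41.2 and 53 CPM on the HFD. Its log2 ratio was nearly equal on the diets, 0.34 (0.30 to 0.38) and 0.36 (0.31 to 0.40). *Arrdc2*, an arrestin-domain protein, was at 9.18 CPM in chow-fed WT mice and between 13.5 and 14.5 CPM in the other 3 groups. *Ddit4*, an inhibitor of the growth kinase mTOR, was at 27.4 CPM in chow-fed WT mice and between 36.5 and 40 CPM elsewhere. *Txnip*, an arrestin-like protein that lowers glucose uptake and binds thioredoxin, was at 25.9 CPM in chow-fed WT mice and between 35.4 and 41.2 CPM elsewhere. The same arrangement was seen in *Cdkn1a*, an inhibitor of the cell cycle, with 11.1 CPM in chow-fed WT mice and between 13.8 and 14.5 CPM in the other groups. *Map3k6*, a stress kinase, was the exception of this group. It was at 3.15 and 4.21 CPM on chow and at 3.75 and 2.6 CPM on the HFD, so that the log2 ratio was 0.33 (0.31 to 0.34) on chow and -0.40 (-0.41 to -0.39) on the HFD. Its levels on the HFD were the lowest of the 34 genes there. *Errfi1*, a feedback inhibitor of the EGF receptor, *Nfkbia*, the inhibitor of NF-κB, and *Nedd9*, a scaffold of cell adhesion, had log2 ratios between 0.10 and 0.20 on chow and between 0.09 and 0.13 on the HFD.

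Genes of fuel and lipid metabolism gave 3 of 6 counted as higher on chow, and all 6 were higher beyond the rounding range, with a median log2 ratio of 0.40. *Plin4*, a coat protein of lipid droplets, was at 7.42 CPM in chow-fed WT mice and 12.6 CPM in chow-fed *Gpr75-/-* mice, a log2 ratio of 0.70 (0.67 to 0.72). On the HFD it was at 9.76 and 9.97 CPM (0.03, 0.00 to 0.05). Of the members, *Plin4* also had the widest gap between its group values and the authors' mean over the 6 mice, with a log2 ratio of group values over that mean of -0.06 on chow and -0.10 on the HFD. At these digits *Sgk1* and *Map3k6* had the same value of -0.06 on chow. *Xdh*, which encodes xanthine dehydrogenase, was at 9 and 13.8 CPM on chow (0.57, 0.54 to 0.60) and at 8.65 and 9.76 CPM on the HFD (0.16, 0.13 to 0.18), and the chow-fed *Gpr75-/-* mice were the group that stood apart. *Sult1a1*, a sulfotransferase of phenols, was at 6.19 CPM in chow-fed WT mice and between 8.65 and 9.76 CPM in the other groups. *Pdk4*, a kinase that inhibits the pyruvate dehydrogenase complex, was just under the threshold on chow with 13.2 and 16.7 CPM, and was at 16.7 and 19.4 CPM on the HFD. *Pnpla2*, the lipase that starts the breakdown of stored fat, and *Angptl4*, an inhibitor of lipoprotein lipase, were higher in *Gpr75-/-* mice on chow (0.24 and 0.15) and lower on the HFD (-0.08 and -0.10).

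Metallothioneins bind zinc and copper and are induced by glucocorticoids and by metals. *Mt1* and *Mt2* are neighbors on chromosome 8 (94905710 to 94906955 and 94899292 to 94900196) and paralogs. *Mt2* was at 11.8 and 15.9 CPM in WT and *Gpr75-/-* mice on chow (0.40, 0.37 to 0.43) and at 13.8 and 15.5 CPM on the HFD (0.16, 0.13 to 0.19). *Mt1* was at 176 and 191 CPM on chow (0.12, 0.06 to 0.18) and at 183 and 191 CPM on the HFD, so its genotype effect was small on both diets.

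The receptors and the enzyme of the hormone were lower in *Gpr75-/-* mice on chow, all 3 beyond rounding and 0 of 3 counted. *Nr3c1*, whose own transcription is lowered by glucocorticoids in many tissues, was at 119 CPM in chow-fed WT mice, 102 CPM in chow-fed *Gpr75-/-* mice, 102 CPM in HFD-fed WT mice and 94.9 CPM in HFD-fed *Gpr75-/-* mice. Its log2 ratio was -0.21 (-0.27 to -0.16) on chow and -0.10 (-0.16 to -0.05) on the HFD, lower in *Gpr75-/-* mice both times and short of the threshold. *Nr3c2* was at 26.6 CPM in chow-fed WT mice and 24.6 CPM in each of the other groups. *Hsd11b1*, the enzyme that turns inactive hormone back to its active form, was at 13.2 and 12.6 CPM on chow and at 14.5 and 13.8 CPM on the HFD, with a log2 ratio of -0.06 on each diet.

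Membrane, junction and cytoskeleton genes were mixed, with 0 of 6 counted on either diet and a median log2 ratio of 0.00 on chow. *Mertk*, a receptor kinase with which glia engulf cell debris, was at 28.2 and 33.4 CPM on chow (0.24, 0.20 to 0.28) and at 31.5 and 28.2 CPM on the HFD (-0.16, -0.20 to -0.12). *Gjb6*, an astrocyte connexin, was at 128 and 144 CPM on chow and at 156 and 162 CPM on the HFD, with log2 ratios of 0.17 (0.11 to 0.22) and 0.06 (0.00 to 0.11). *Tgm2*, a transglutaminase, was the lowest of the group on chow (-0.15, -0.17 to -0.13). The GTPase genes *Rhob* and *Rhou* and the endocytosis gene *Ehd3* had log2 ratios between -0.05 and 0.05 on both diets.

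**Figure D2:**
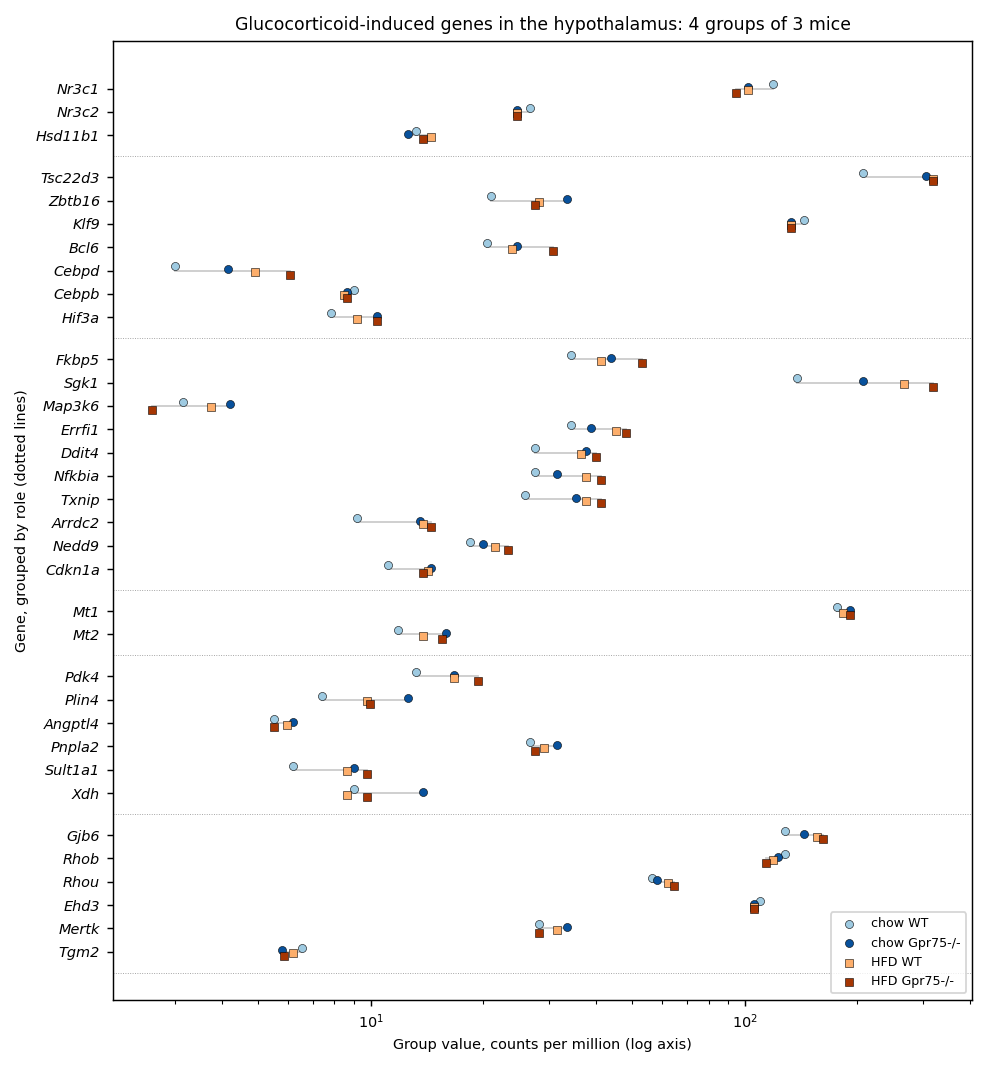
Group values in CPM (x axis, log scale) of the 34 genes found (y axis, grouped by role between dotted lines), with circles for chow, squares for the HFD, light for WT and dark for Gpr75-/- mice, and 1 deposited value per group with no error. For genes such as Tsc22d3, Arrdc2, Ddit4 and Txnip the light circle of chow-fed WT mice lies left of the other 3 symbols.

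On the HFD, 2 of the 34 genes, *Bcl6* and *Fkbp5*, were counted as higher in *Gpr75-/-* mice and 1, *Map3k6*, as lower. Over all 15749 genes past the filter 1.02% were counted as higher and 1.02% as lower. None of these 3 genes was counted where 10 CPM was added or at a fold of 1.5, and *Bcl6* and *Fkbp5* were not counted where the whole rounding range had to pass. Over all genes, 160 higher and 160 lower became 6 and 15 where 10 CPM was added, and 9 and 17 at a fold of 1.5. The median log2 ratio of the 34 genes was 0.05, against 0.00 over all genes. Beyond the rounding range, 15 (44.1%) were higher, 7 (20.6%) were lower and 12 could not be placed, where 32.1% of all genes were higher and 23.4% lower, so these shares lay nearer to the background than on chow. The 15 genes counted on chow had a median log2 ratio of 0.44 there and of 0.13 on the HFD, where 10 of them were higher beyond rounding, 1 was lower and 4 could not be placed. These genes were picked by their chow values, so that the larger median on chow is partly fixed by the choice.

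The log2 ratio of *Gpr75-/-* over WT was lower on the HFD than on chow by at least 0.32 in 9 of the 34 genes and higher by as much in 0, where 2.54% and 3.3% of the 15475 genes past the filter on both diets were so placed. The 9 genes were *Tsc22d3*, *Zbtb16*, *Sgk1*, *Map3k6*, *Arrdc2*, *Cdkn1a*, *Plin4*, *Xdh* and *Mertk*. In *Map3k6* and *Mertk* the ratio was above zero on chow and below zero on the HFD, beyond rounding on both. The difference of the HFD minus the chow log2 ratio was -0.73 (-0.76 to -0.70) for *Map3k6*, -0.69 (-0.76 to -0.61) for *Zbtb16*, -0.67 (-0.72 to -0.61) for *Plin4* and -0.56 (-0.68 to -0.43) for *Tsc22d3*. It was -0.32 (-0.45 to -0.20) for *Sgk1*, just inside the threshold, and -0.32 for *Ddit4* and *Sult1a1* and -0.31 for *Txnip* and *Pnpla2*, just outside it. The count of 9 became 13 at a fold of 1.2 and 12 with no pseudocount, and 3 where 10 CPM was added and 3 at a fold of 1.5. Over all genes, the 393 so placed became 701, 663, 41 and 51 at these settings, in the same order. *Fkbp5* (0.02, -0.07 to 0.10) and *Nedd9* (0.01, -0.07 to 0.08) had about the same effect on either diet. Over the 34 genes the median difference was -0.11, against 0.00 over all genes, and 18 were lower and 4 higher beyond rounding, where 23.2% and 26.9% of all genes were placed so. The diets use different WT mice, so these effects share no control. The chow ratio enters this difference, and the list was chosen with results of these mice known. A list that leans higher on chow gives lower differences by construction, so their direction is not independent evidence. With no values of single mice, the difference between the diets was not tested.

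Levels were also set side by side across the diets. The tables were normalized separately, so such a comparison rests on CPM having the same meaning in both, and the median log2 ratio of HFD over chow was 0.00 over all genes in each genotype. A count made after this arrangement had been seen in single genes gave chow-fed WT mice the lowest level of the 4 groups in 22 of the 34 genes (64.7%), compared with 27.1% of all genes, and the highest level in 7 (20.6%), compared with 25.5% of all genes. The 22 genes included 13 of the 15 counted on chow (86.7%), the exceptions being *Map3k6* and *Xdh*. Of all 249 genes counted as higher on chow and past the filter on both diets, 89.2% also had their lowest level in chow-fed WT mice, so that share of the 15 is background for genes chosen in this way. The 7 genes with the highest level in chow-fed WT mice were *Nr3c1*, *Nr3c2*, *Klf9*, *Cebpb*, *Rhob*, *Ehd3* and *Tgm2*. In WT mice, 12 of the 34 genes were higher on the HFD than on chow by the same threshold and 0 were lower, where 1.75% of all genes were higher and 2.93% lower. The count of 12 became 4 where 10 CPM was added and 2 at a fold of 1.5. The largest was *Sgk1*, with a log2 ratio of 0.95 (0.89 to 1.01), and *Tsc22d3* followed with 0.62 (0.56 to 0.68). *Cebpd* (0.56), *Arrdc2* (0.54) and *Txnip* (0.52) came next. The median over the 34 genes was 0.21 in WT mice. In *Gpr75-/-* mice, 3 of the 34 genes, *Sgk1*, *Cebpd* and *Nfkbia*, were higher on the HFD and 2, *Map3k6* and *Xdh*, were lower, where 1.02% and 2.41% of all genes were placed so, and the median was 0.01. For *Sgk1* the HFD was also above chow in *Gpr75-/-* mice (0.62, 0.56 to 0.68), whereas for *Tsc22d3* the *Gpr75-/-* groups lay within 0.06 of each other (0.00 to 0.13). The genotype effect on chow and the diet effect in WT mice share the chow-fed WT mice, so they are not separate evidence. Not every gene had chow-fed WT mice as the group that stood apart, since *Xdh*, *Zbtb16* and *Plin4* were highest in chow-fed *Gpr75-/-* mice. That group was also the highest for *Map3k6*, *Cdkn1a*, *Mt2*, *Angptl4*, *Pnpla2* and *Mertk*.

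**Figure D3:**
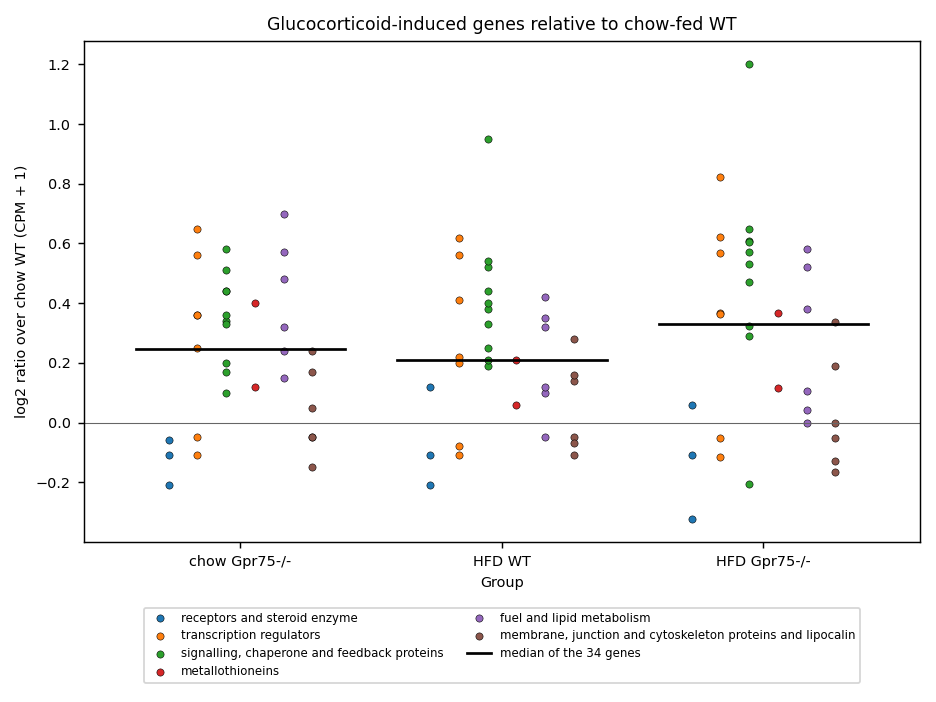
Log2 ratio over chow-fed WT mice (y axis, after 1 CPM was added) of the 34 genes in the other 3 groups (x axis), colored by role, with a black line at the median of each group. All 3 columns share the chow-fed WT mice. The medians on chow in Gpr75-/- mice and on the HFD in WT mice lie at 0.25 and 0.21, and Sgk1 is the highest point in both HFD groups.

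Other genes of the pathway were counted from lists of receptor partners, hormone axis genes and further responsive genes. Of 15 chaperones and coregulators of the receptors, 0 were counted on either diet, with medians of 0.00 on chow and 0.05 on the HFD. *Hsp90aa1*, which encodes the chaperone that holds the receptor ready for hormone, was at 1270 and 1140 CPM on chow and at 1140 CPM in both genotypes on the HFD. Of 8 genes of the axis found of 10 listed, which include *Nr3c1* from the 34 genes above, 0 were counted on chow and 3 on the HFD, all higher in *Gpr75-/-* mice. They were *Pomc*, the precursor of ACTH and melanocortins (20.4 and 28.2 CPM, against 17.1 and 14.2 CPM on chow), *Crhbp*, which encodes a binding protein of corticotropin-releasing hormone (10.8 and 15.2 CPM), and *Crhr1*, a receptor for that hormone (6.64 and 8.82 CPM). *Crh* itself, the hypothalamic hormone at the head of the axis and a target of glucocorticoid feedback, was at 11.1 and 9.97 CPM on chow (-0.14, -0.17 to -0.11) and at 11.3 and 11.6 CPM on the HFD (0.03, 0.00 to 0.06). Of 8 further glucocorticoid-responsive genes, 0 were counted on either diet, with medians of 0.06 and 0.09. The highest of them on chow was *Fam107a*, an actin-associated protein of astrocytes and neurons, with 162 and 199 CPM (0.29, 0.23 to 0.35). *Per1*, a clock gene that glucocorticoids induce, was at 36.5 and 38.8 CPM in WT and *Gpr75-/-* mice on each diet, and *Dusp1*, a phosphatase induced early by the hormone, was lower in *Gpr75-/-* mice on both (-0.09 and -0.20).

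Among marker genes of other cells, those of choroid plexus and red blood cells had most of their genes counted as higher in chow-fed *Gpr75-/-* mice. Of 10 choroid plexus markers, 9 were counted as higher in chow-fed *Gpr75-/-* mice, with a summed level of 86.7 CPM in WT and 122 CPM in *Gpr75-/-* mice, and 3 of the 10 had a group at the lowest deposited value. On the HFD, 6 of the 10 were listed, with sums of 79.2 and 83.7 CPM, and 1 was counted, as lower. For *Ttr*, the choroid plexus carrier of thyroid hormone, the log2 ratio of the group values over the authors' mean of the 6 chow-fed mice was -4.10, the widest gap of all genes past the filter on chow, whereas for the 34 genes examined it lay between -0.06 and 0.00 on chow and between -0.10 and 0.00 on the HFD. That mean came to 159 CPM, against decoded group values of 5.59 and 12.9 CPM, so the sums above hold far less *Ttr* than the mean over the mice does. Without *Ttr* the sums were 81.1 and 109 CPM on chow and 75.6 and 82.3 CPM on the HFD. Of 5 red blood cell genes, 4 were counted as higher in chow-fed *Gpr75-/-* mice, with sums of 277 and 443 CPM in WT and *Gpr75-/-* mice, and 1 as lower on the HFD, with sums of 314 and 280 CPM. Their part in the chow result was not tested. Endothelial markers had sums of 231 and 221 CPM on chow and of 233 and 223 CPM on the HFD, with 0 of 8 counted. Astrocyte markers had a sum of 2390 CPM in both genotypes on chow and sums of 2480 and 2490 CPM on the HFD, and the microglia and neuron lists had medians between -0.05 and 0.00. Oligodendrocyte markers were lower in *Gpr75-/-* mice beyond rounding in 7 of 9 genes on chow and 9 of 9 on the HFD, 1 of them counted on each diet, with sums of 7030 and 6330 CPM on chow and of 7640 and 6660 CPM on the HFD. Immediate early genes, which respond to neuronal activity and handling, had medians of -0.21 on chow and -0.32 on the HFD, with 3 and 4 of 9 counted as lower and 0 as higher. Hypothalamic markers, which share *Pomc*, *Oxt* and *Avp* with the axis list, had 0 of 10 counted on chow and 6 of 10 counted as higher on the HFD.

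**Figure D4:**
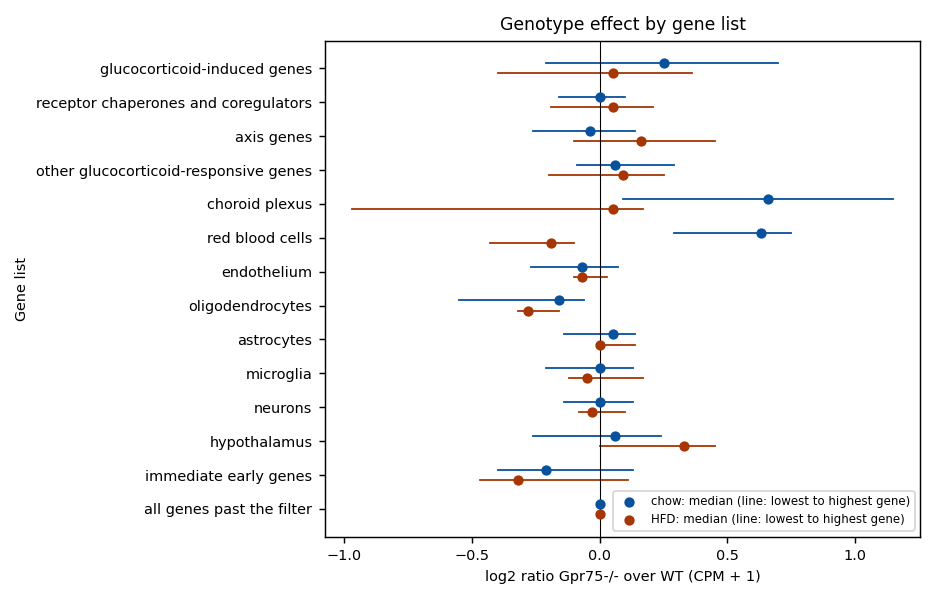
Log2 ratio of Gpr75-/- over WT (x axis) by gene list (y axis), with a point at the median and a line from the lowest to the highest gene, in blue for chow and brown for the HFD. For all genes past the filter the median alone is drawn. On chow the 34 members (median 0.25), the choroid plexus list (0.66) and the red blood cell list (0.63) lie right of zero.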

How the data were processed

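Hypothalamus RNA of 12 mice was made into libraries with a SMART-Seq mRNA kit and sequenced on an Illumina NovaSeq instrument. The authors ran the reads on the Astrocyte platform and compared raw counts with DESeq2 on each diet. The submitters' processing notes name STAR, featureCounts, StringTie and the build GRCm39, with no versions. The annotation release is not given in the sources used here. The deposited signal is the authors' mean over 6 mice of counts divided by size factors. The deposited log2 group values appear to be log2 of 1 plus log2 CPM. The scale is not stated, and it was read from the values. Decoded values summed to between 992419 and 994240 per group, and for 99.2% of genes on chow and 99.3% on the HFD lay within 5% of the scaled mean. Whether mice were averaged before or after the logs is not stated. For *Ttr* on chow the group values of 5.59 and 12.9 CPM lay far below the scaled mean of 159 CPM. An average taken before the logs would not give that gap. The tables also hold the authors' own comparison (fold changes, standard errors, statistics and p-values), which was not used.

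Tests on counts had been planned, with a quasi-likelihood fit per diet and for the interaction, but no counts of single mice were at hand. For that case, log2 ratios of group values without a test and the threshold of 0.32 had been set at the start. A pseudocount of 1 was used. Group values were decoded, and genes were counted among those with a mean of at least 30. Every member found is described by role. Members, lists, thresholds and tests were chosen with earlier results of these data known. The filter of 30 was not among the choices set at the start and was taken after the members' means had been seen (all 34 pass it). The count of genes with the lowest level in chow-fed WT mice was also added after the levels had been seen. The 4 motifs were tried in turn, and the windows printed were picked from the matches found. Steps were tested on simulated data with rounded values. Alternatives were other filters, pseudocounts, thresholds, centring, protein-coding genes alone and a strict rounding rule. Python 3.11.15, numpy 2.4.6, pandas 2.3.3 and matplotlib 3.10.9 were used. RefSeq promoters were read upstream of starts only, and printed flanks were cut at exons of GENCODE M21. While the scale of the group values was being worked out, the authors' fold changes were set beside decoded differences once, and no value printed here comes from them.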

Additional observations from a re-analysis of the deposited data

How the results depend on the processing

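The 15 genes counted as higher on chow remained the same with no filter on low means, with centring on the median of all genes and with protein-coding genes alone. Of them, 13 remained with a mean of at least 100 normalized counts (which removes *Cebpd* and *Map3k6*) and 13 where the whole rounding range had to pass (which loses *Fkbp5* and *Map3k6*), and *Pdk4* was added with a fold of 1.2 or no pseudocount. With a pseudocount of 10 CPM 7 were counted on chow, the median fell from 0.25 to 0.17, and with a fold of 1.5 only *Plin4* and *Zbtb16* were left (2 genes). On the HFD, a pseudocount of 10 CPM or a fold of 1.5 left 0 counted as higher and 0 as lower, and the strict rounding rule left 0 as higher and 1 as lower. The gene counted as lower there, *Map3k6*, is removed by the mean of at least 100, which leaves 0. The 9 genes with a lower log2 ratio on the HFD than on chow became 3 with a pseudocount of 10 CPM and 3 with a fold of 1.5, and 13 with a fold of 1.2 and 12 with no pseudocount. The 12 genes higher on the HFD in WT mice became 4 with a pseudocount of 10 CPM and 2 with a fold of 1.5. A larger pseudocount shrinks the ratios of genes at low CPM by construction. Over all genes on chow, 261 genes counted as higher became 28 to 500 and 243 as lower became 19 to 465 over the settings, and on the HFD 160 and 160 became 6 to 372 and 15 to 315. Of all genes, the 393 with a lower log2 ratio on the HFD than on chow became 41 to 701. The pseudocount of 0 and the strict rounding rule were added after the data were seen. No paired analysis was possible because the tables hold no values of single mice, and for the same reason edgeR and DESeq2 fits, other normalizations and leaving out a replicate were not run. Rounding of the deposited group values leaves a log2 ratio of these genes uncertain by 0.0139 to 0.0644 to either side, and the spread between mice was not used here.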
